A study of Mus musculus with 13 samples.

Results

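The transcripts described here are 83 RIKEN-named features of single mouse oocytes, chosen from the 49686 features of the FPKM table (fragments per kilobase of transcript, scaled to the mapped fragments of the library, a level per unit of length). A feature was taken if its symbol ends in Rik, if neither table of estimated counts holds it, and if its mean over all 13 libraries was at least 2 FPKM. Of 663 Rik symbols outside the count tables, 253 were listed at 0 in every library and 83 passed the threshold. The count tables hold no Rik symbol, and no symbol of the FPKM table starts with a digit, while GENCODE M21 lists 3007 Rik symbols, of which 2340 start with a digit. The 83 transcripts therefore all carry a symbol that starts with a letter. The rule used the mean level over both stages, so the levels themselves are a description.

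Each library was made from 1 zona-free oocyte of C57BL/6 females aged 3 to 4 weeks, collected 48 h after PMSG. All oocytes had been injected with FBL-GFP mRNA, were held at the germinal vesicle (GV) stage with Cilostamide for 6 h and were sorted by the pattern of the nucleolar protein fibrillarin into surrounded nucleolus (SN) and non-surrounded nucleolus (NSN) oocytes. The groups were 3 SN GV, 3 NSN GV, 4 SN-MII and 3 NSN-MII oocytes, the MII oocytes having matured to metaphase of the second meiotic division. The labels do not say that oocytes of 1 group came from separate females, so every p-value measures the spread between these oocytes only.

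RIKEN symbols are the clone names of a large mouse cDNA collection and are kept for genes that have no functional name yet, many of them long noncoding RNAs. A growing oocyte stores mRNA, stops transcription around the time its chromatin surrounds the nucleolus, and then matures without new synthesis. During maturation many stored mRNAs are deadenylated and degraded, while others gain a longer poly(A) tail and are translated. Libraries primed on poly(A) tails, as these were, read both the amount of an RNA and its tail, so a lower or higher FPKM here cannot be assigned to one of them, and FPKM is relative to the other RNA in the same oocyte.

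Total estimated counts per library were 7140416 to 8846287. All 12 oocyte markers were present, with summed levels of 11597 to 16391 FPKM at GV and 9625 to 11937 FPKM at MII. The 12 markers of cumulus and granulosa cells summed to 27.4 to 37.3 FPKM at GV and 39.3 to 65.0 FPKM at MII. Of these, Cyp19a1 made up 16.8 to 27.6 and 30.2 to 53.1 FPKM. Nr5a2 was at 4.41 to 11.2 FPKM at GV and 2.58 to 6.09 FPKM at MII, and Kitl at 0.59 to 4.04 and 1.78 to 7.58 FPKM. Foxl2 and Ptx3 were listed at 0 in every library. The leukocyte marker Ptprc did not exceed 0.17 FPKM. Features outside the count tables made up 18.9% to 21.2% of all FPKM at GV and 9.13% to 13% at MII. The sum of all FPKM was 654206 to 767205 at GV and 560705 to 577278 at MII, which moves with the stage, and its part in the stage comparison was examined by rescaling.

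Mean levels of the 83 transcripts ran from 2.0 to 3717 FPKM with a median of 9.11. Of these, 37 had a mean of at least 10 FPKM, 8 of at least 100 and 2 of at least 1000. Above 0 in all 13 libraries were 77 of them, and the other 6 were listed at 0 in at least 1 library. The median coefficient of variation between oocytes of a group was 25.1% in SN GV, 27.5% in NSN GV, 28.8% in SN-MII and 31.1% in NSN-MII oocytes. The 3 transcripts just inside the threshold were E130111B04Rik (2.0 FPKM), E130308A19Rik (2.0 FPKM) and A930035D04Rik (2.01 FPKM), and the 3 just outside were D730003I15Rik (1.83 FPKM), D130058E05Rik (1.64 FPKM) and D130062J10Rik (1.58 FPKM). At GV and MII taken apart, 64 had a mean of at least 2 FPKM at both stages, 17 at GV alone and 2 at MII alone.

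GENCODE M21, on GRCm38 (mm10), annotates 44 of the 83 as long noncoding, 32 as protein coding and 7 as other kinds (3 unconfirmed transcripts, 2 T-cell receptor segments and 2 pseudogenes). The kinds named in this text are those of GENCODE, and RefSeq differs for some, among them A630010A05Rik and A530021J07Rik. The 83 lie on 20 chromosomes, with at most 12 on 1 of them. Their longest transcripts measure 380 to 10968 bases with a median of 2139. The median number of exons was 3 in the long noncoding and 4.5 in the protein-coding transcripts. RefSeq still lists 65 under the RIKEN symbol, 8 under a later name and 10 not under either. Among the renamed are E330017A01Rik (Ftdc2, a ferritin domain gene), A630095E13Rik (Pate14), C130060K24Rik (Qrfprl, named after a neuropeptide receptor), E330009J07Rik (Dennd11, a DENN domain gene) and B230118H07Rik (Iftap, named for intraflagellar transport).

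A pair of protein-coding transcripts had the highest mean levels over the 13 libraries. E330034G19Rik (chr14:24293214-24309966, plus strand) stood at 2487, 2378 and 2166 FPKM in SN GV and 1783, 2368 and 2051 FPKM in NSN GV oocytes. In the SN-MII oocytes it stood at 4744, 4367, 4697 and 5209 FPKM and in the NSN-MII oocytes at 4748, 4803 and 6518 FPKM. Every MII oocyte lay above every GV oocyte, and the ranges of SN and NSN oocytes overlapped at each stage. E330021D16Rik (chr6:136400317-136415569, minus strand) followed the same order, with 1183 to 1636 FPKM (median 1414) at GV and 2589 to 4053 FPKM (median 2915) at MII. The difference was 1.19 ± 0.10 (SE; adjusted p = 1.67e-07) for E330034G19Rik and 1.10 ± 0.12 (adjusted p = 1.56e-06) for E330021D16Rik on the log2(FPKM + 1) scale, in limma across 11525 features. Together they made up 36.1% to 48.7% of the summed FPKM of the 83 at GV and 78.5% to 86.6% at MII. The whole set made up 1.16% to 1.30% of all FPKM at GV and 1.57% to 2.11% at MII.

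**Figure D1:**
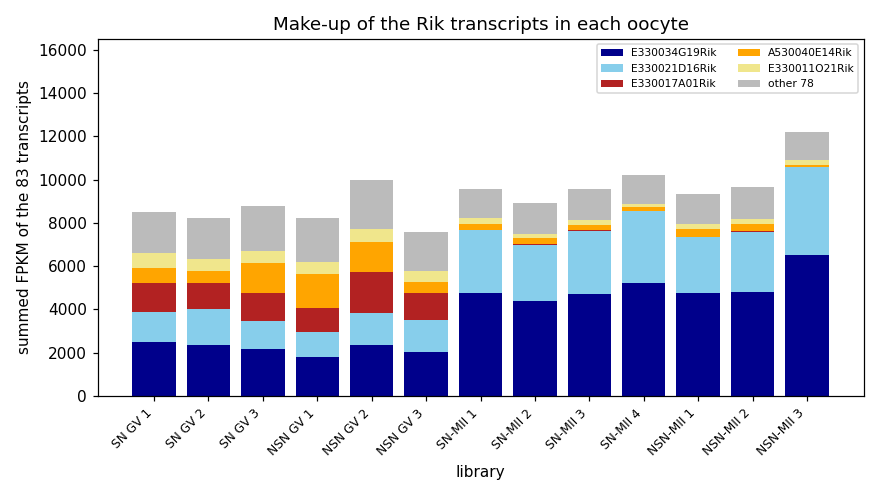
Summed FPKM (linear axis) of the 83 Rik transcripts in each of the 13 libraries, with the 5 most abundant transcripts and the other 78 stacked. E330034G19Rik and E330021D16Rik make up at most 48.7% of the column in a GV oocyte and at least 78.5% in an MII oocyte, while the E330017A01Rik segment is visible at GV alone.

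Next in rank was E330017A01Rik (chr16:58635167-58638739, minus strand), which showed the largest fall. Its level was 1348, 1209 and 1269 FPKM in SN GV and 1108, 1866 and 1249.7 FPKM in NSN GV oocytes. In SN-MII oocytes it was 19.1, 42.0, 25.7 and 25.2 FPKM and in NSN-MII oocytes 29.1, 22.5 and 6.75 FPKM. No GV and MII oocyte overlapped, and the log2 difference was -5.90 ± 0.28 (SE; limma, adjusted p = 5.64e-10). At GV its range overlapped that of E330021D16Rik.

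The other transcripts among the 10 most abundant were mostly lower at MII. E330011O21Rik, a noncoding transcript antisense to the virus receptor gene Cxadr, measured 579 ± 56.1 FPKM (SD, n = 6) at GV and 219 ± 38.4 (n = 7) at MII. A730082K24Rik, a lincRNA, fell from 186 ± 19.9 to 52.9 ± 5.80 FPKM, and E330014E10Rik from 159 ± 26.6 to 28.3 ± 14.5 FPKM. In all of these, the lowest GV oocyte lay above the highest MII oocyte. A430033K04Rik, annotated as protein coding, showed a smaller difference, with 252 to 385 FPKM at GV and 133 to 243 FPKM at MII (log2 difference -0.57 ± 0.13, adjusted p = 0.00152), which was no longer called when libraries were scaled to the same FPKM sum (adjusted p = 0.0968).

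**Figure D2:**
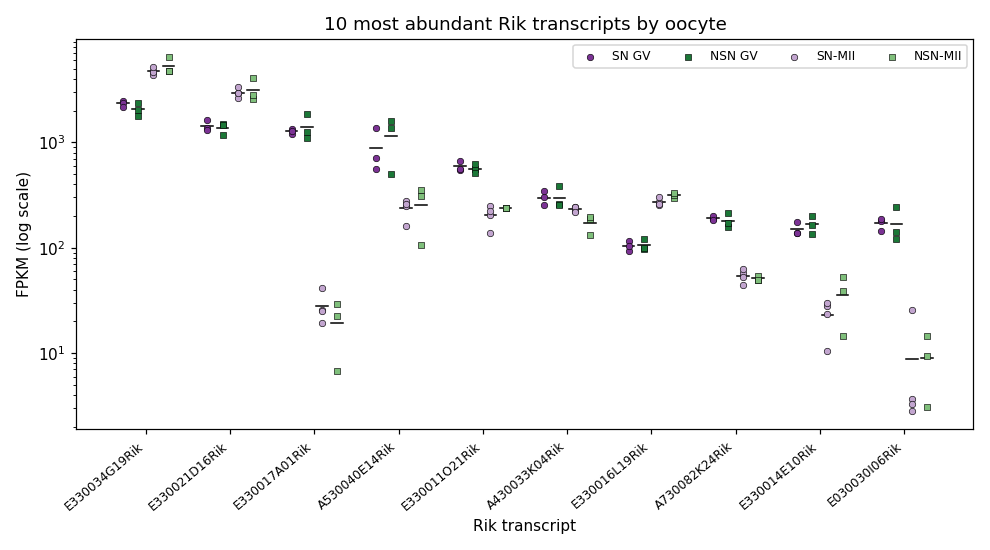
FPKM (log axis) of the 10 most abundant Rik transcripts. Each point is 1 oocyte, coloured by group (3 SN GV, 3 NSN GV, 4 SN-MII, 3 NSN-MII), and bars mark group means. In 3 transcripts (E330034G19Rik, E330021D16Rik and E330016L19Rik) all MII oocytes lie above all GV oocytes, and in the other 7 all lie below.

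Between the stages, 56 of the 83 transcripts (67.5%) passed an adjusted p of 0.05 in limma, 18 higher and 38 lower at MII. Of all 11525 features tested, 70.4% did so, 28.4% higher and 41.9% lower. The share among the 83 was thus near the background, and the median log2 difference was -0.26 for the 83 against -0.24 for all features. When libraries were scaled to the same FPKM sum, the median over all features moved to -0.02 and the split among the 83 became 25 higher and 31 lower, so that the share of higher calls rose from 32.1% to 44.6%. With median-of-ratios scaling it was 35.6%. Without overlap of the GV and MII ranges were 41 transcripts (49.4%; 48.1% of all features), 12 higher (background 17.8%) and 29 lower (background 30.3%), and all 41 were among the 56 called. At least 2-fold lower and called were 30 of the 83 (36.1%; 33.2% of all features), at least 4-fold 12 (14.5%; 16.8%) and at least 8-fold 5 (6.02%; 7.18%). At least 2-fold higher and called were 10 (12%; 12.8% of all features) and at least 4-fold none (0.139% of all features). These shares, too, were near the background, and with libraries scaled to the same FPKM sum 28 were lower and 14 higher by at least 2-fold (29.2% and 20.1% of all features).

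**Figure D3:**
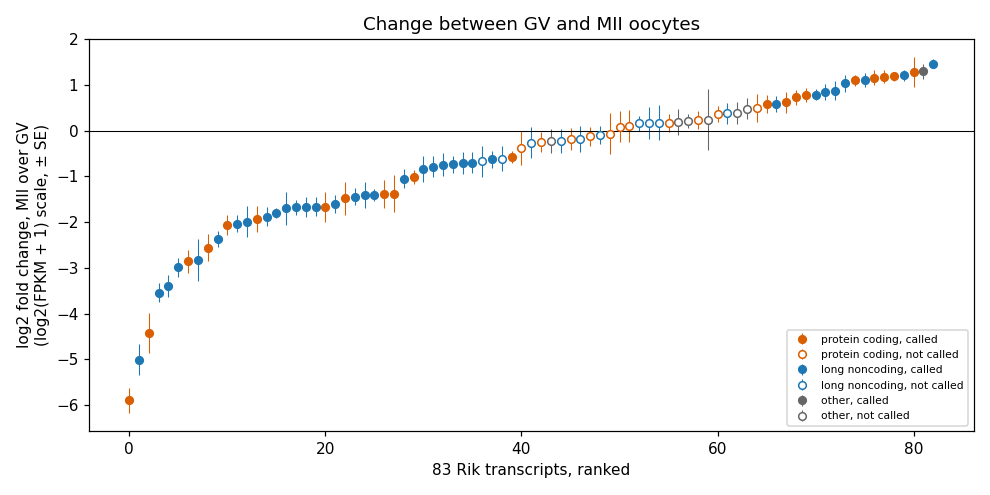
Log2 difference of MII over GV (log2(FPKM + 1) scale, ± SE from limma) of the 83 Rik transcripts, ranked and coloured by annotated kind, filled where called. The 18 called rises end at 1.47 and the 38 called falls reach -5.90.

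By annotated kind, 26 of the 44 long noncoding transcripts fell, 8 rose and 10 did not pass, with a median log2 difference of -0.74. Among the 32 protein-coding transcripts 12 fell, 9 rose and 11 did not pass, with a median of -0.09. Of the 7 others 1 rose and 6 did not pass. Over all features tested, 41.9% were called lower and 28.4% higher. Calls by kind were not counted over all features, nor with libraries scaled to the same FPKM sum. No contrast between the kinds is therefore read from these numbers. Other features outside the count tables with a mean of at least 2 FPKM had medians of -0.69 (998 Gm symbols, 64.9% called) and -0.89 (145 other symbols, 69.7% called), and the 8702 features inside the count tables a median of -0.15 (75.1% called).

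After E330017A01Rik, the lincRNA D630033O11Rik fell most. It stood at 64.3, 63.2 and 125 FPKM in SN GV and 78.8, 92.0 and 49.0 FPKM in NSN GV oocytes. In SN-MII oocytes it was listed at 0 and at 0.59, 4.08 and 1.12 FPKM, and in NSN-MII oocytes at 2.32, 1.75 and 1.31 FPKM. The fitted log2 difference was -5.01 ± 0.33 (limma, adjusted p = 1.17e-08). A930031H19Rik, a lincRNA on chromosome 4, had 6.36 to 20.5 FPKM at GV and was listed at 0 in 4 of the 7 MII oocytes, with 0.16, 0.16 and 0.32 FPKM in the other 3, and D130020L05Rik, antisense, had 10.5 to 27.5 FPKM at GV and 0.21 to 1.27 FPKM at MII. For values this close to 0 the fitted difference, -3.54 and -3.40, depends on the pseudocount of 1.

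E030030I06Rik, annotated as protein coding and with a pseudogene on its other strand, had 120.2 to 243 FPKM (median 162) at GV and 2.80 to 25.6 FPKM (median 3.71) at MII. The third SN-MII oocyte gave the 25.6 FPKM, and the other 3 of its group lay between 2.80 and 3.71 FPKM. The log2 difference was -4.43 ± 0.44 with it and -4.76 without it. The lincRNA A230057D06Rik, whose locus spans the Mir344 microRNA genes, fell from 27.5 ± 3.54 (SD, n = 6) to 2.66 ± 1.11 FPKM (n = 7), the Qrfprl transcript C130060K24Rik from 27.7 ± 8.54 to 2.96 ± 1.69 FPKM, and E330020D12Rik was at 3.22 to 34.9 FPKM at GV and 0.14 to 1.43 FPKM at MII. E330020D12Rik varied more than 10-fold among the GV oocytes and yet did not overlap with MII.

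The largest rise belonged to E330016L19Rik, a 4-exon lincRNA on the X chromosome (chrX:30037837-30087879, plus strand). It measured 105 ± 11.1 FPKM (SD, n = 6) at GV and 289.8 ± 30.5 FPKM (n = 7) at MII, a log2 difference of 1.47 ± 0.10 (limma, adjusted p = 1.68e-08). Its longest transcript shares 99.8% identity over 99.1% of its length with Gm2309, which stood at 107 ± 9.24 FPKM at GV and 277 ± 35.1 FPKM at MII. E330010L02Rik, another X-linked lincRNA, rose from 33.3 ± 3.86 to 77.7 ± 10.7 FPKM (log2 difference 1.21) and shares at least 95.2% identity over stretches of its length with E330016L19Rik, Gm2309, Gm14552, Gm2101 and others. Gm2101, Gm2165 and Gm3669 carry identical values in all 13 libraries, at 14.3 to 23.0 FPKM at GV and 44.7 to 59.7 FPKM at MII. How many reads belong to each copy is therefore uncertain.

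Other rises came from genes with no copy of at least 95% identity over 50% of their length. A630010A05Rik, protein coding in GENCODE but noncoding in RefSeq, went from 9.94 ± 1.14 to 23.8 ± 3.17 FPKM (SD, n = 6 and n = 7). E130311K13Rik, protein coding, went from 6.75 ± 1.65 to 16.2 ± 1.59 FPKM. A530021J07Rik, a lincRNA in GENCODE but protein coding in RefSeq, went from 13.2 ± 3.43 to 29.1 ± 3.14 FPKM. The lowest MII oocyte exceeded the highest GV oocyte in each, with log2 differences of 1.18, 1.16 and 1.11. The log2 differences of these 3 and of the pair at the top of the list lay between 1.10 and 1.19, over levels from 5.49 to 6518 FPKM. These transcripts lie side by side in the ranking of rises by size, so the narrow range follows from that ranking. The other called rises ran from 0.58 (E330009J07Rik) to 1.47 (E330016L19Rik), and no common size of rise is read from the range. For comparison, 8 mRNAs known to be polyadenylated during maturation, among them Ccnb1, Btg4 and Cnot7, summed to 4099 to 4763 FPKM at GV and 7298 to 9419 FPKM at MII. Not every one of them was higher at MII, since Mos, a kinase needed for the arrest at MII, was at 532 to 771 FPKM (median 577) at GV and 237 to 799 FPKM (median 537) at MII.

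Another 4 members have near-identical copies. E330014E10Rik shares 98.4% identity over 99.2% of its length with D5Ertd577e, which fell from 120.1 ± 8.49 to 32.4 ± 10.3 FPKM beside it. A430005L14Rik shares 95.5% identity with Gm12247, listed at 0 in every library, so its fall from 125 ± 30.3 to 35.8 ± 12.9 FPKM stood apart from that copy. C920008G01Rik, the T-cell receptor segment Trav7d-6, is 100% identical to Trav7n-6 over its 380 bases and was at 0 to 25.0 FPKM at GV and 2.76 to 17.1 FPKM at MII, without a called difference. The Sp140-related gene A530032D15Rik shares 97.5% identity with C130026I21Rik over 61.9% of its length.

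A530032D15Rik and C130026I21Rik belong to a group of overlapping genes on chromosome 1 together with the antisense transcript A530040E14Rik (chr1:85105946-85114035). A530040E14Rik was at 712, 556 and 1369.6 FPKM in SN GV and 1579, 1379.8 and 501 FPKM in NSN GV oocytes. C130026I21Rik was at 22.2, 16.1 and 61.4 FPKM in the same SN GV and 92.1, 59.4 and 16.9 FPKM in the same NSN GV oocytes. A530032D15Rik was at 7.58, 7.26 and 13.4 FPKM and 12.5, 11.8 and 5.86 FPKM. In all 3 transcripts, the third SN GV and the first and second NSN GV oocytes were high and the other 3 GV oocytes low, and this split did not follow the oocyte type. It was not particular to this group. D630033O11Rik of chromosome 9 split the same way. So did Gm3106, with 5.83, 7.03 and 15.6 FPKM in SN GV and 44.4, 13.8 and 7.34 FPKM in NSN GV oocytes. How many other features do so was not counted. A530040E14Rik, C130026I21Rik and A530032D15Rik were all lower at MII, with log2 differences of -1.99, -1.38 and -2.06. A530040E14Rik and C130026I21Rik share 343 exon bases on opposite strands, of 2323 and 3827 exon bases in all. The library kit is not stated to keep the strand, so reads in the shared bases cannot be told apart.

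The 3' ends of some called transcripts are shown, since the libraries were primed on poly(A) tails and cytoplasmic polyadenylation is directed by short U-rich elements near the end. The forms TTTTAT and TTTTAAT of the cytoplasmic polyadenylation element and the polyadenylation signal AATAAA were searched, on the transcript strand, in the last 100 bases of the longest GENCODE transcript. Capitals mark the element found, in windows of 30 bases. The windows were picked, with the search known, from transcripts that hold an element or the signal, and E330017A01Rik, which fell most, and E330016L19Rik and C630004M23Rik, which led the rises, hold none of them there.
E330034G19Rik, higher, element TTTTAAT: ctgacttctgtTTTTAATgcccattaagag
A530021J07Rik, higher, element TTTTAAT: aattgtgcttgTTTTAATtgctctgttgtc
E130311K13Rik, higher, element TTTTAT: tttgtttttcagTTTTATcaactttataat
A730082K24Rik, lower, element TTTTAAT: tgtatgtagtaTTTTAATatttatacagtt
E030030I06Rik, lower, element TTTTAT: tccctctgaagaTTTTATttaaaatatagc
D630033O11Rik, lower, signal AATAAA only: aataataataatAATAAAcagtaaaatcta

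One or both element forms were found in 18 of the 83 transcripts (21.7%), against 17.6% of 11423 tested features with a transcript. They were in 6 of the 18 that rose (33.3%; 27.6% of all risen features), in 9 of the 38 that fell (23.7%; 11.2% of all fallen features) and in 3 of the 27 not called (11.1%). The windows of E330034G19Rik and A730082K24Rik hold the same 7 letters, in a transcript that rose and one that fell. AATAAA was in 44 of the 83 (53.0%; 57.1% of all). A match is a description of letters and not a site in use, and the longest annotated transcript need not be the one made in oocytes.

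SN and NSN oocytes differed in the level of few of the 83. Maturation of SN oocytes gave 47 calls beside 58.3% of all features, 14 higher (background 22.1%) and 33 lower (background 36.2%), and maturation of NSN oocytes 50 calls beside 60% of all features, 16 higher (background 23.4%) and 34 lower (background 36.7%), the oocytes of each type being separate. Of these, 42 were called in both and in the same direction (13 higher, 29 lower), which is 89.4% of the SN calls and 84% of the NSN calls, and none was called in opposite directions. Called in neither were 28. The overlap and this number were not counted over all features, so neither is read as a trait of the 83.

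When the GV oocytes of both types were compared, no transcript passed an adjusted p of 0.05 in limma (0 of 11525 features, 0%), and 2 of the 83 and 305 of all features had an unadjusted p under 0.05. The log2 differences lay between -0.67 and 0.77 with a median SE of 0.33. The smallest p belonged to A430093F15Rik, a noncoding transcript of chromosome 19, which was at 9.64, 7.33 and 9.24 FPKM in SN GV and 13.1, 20.6 and 11.9 FPKM in NSN GV oocytes (log2 difference 0.71 ± 0.27, unadjusted p = 0.0201, adjusted p = 1). B020011L13Rik was at 6.91, 5.90 and 4.91 against 2.97, 3.61 and 4.89 FPKM (-0.53 ± 0.24, unadjusted p = 0.0486). The types did not overlap in either transcript, and neither difference held after adjustment. A930031H19Rik (-0.64 ± 0.31) and D630045J12Rik (0.60 ± 0.30) came next. Without overlap between the types at GV were 2 transcripts higher (background 3.64%) and 4 lower (background 3.36%) in NSN oocytes, together beside 7% of all features.

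At the MII stage, 2 of the 83 were called, both with the lower level in the NSN-MII group, beside 0.538% of all features (62 of 11525). None of the 83 was called higher and 2 lower, beside 0.0521% and 0.486% of all features. Ranges did not overlap in 7 of the 83, beside 9.73% of all features, with 4 higher (background 5.33%) and 3 lower (background 4.4%) in NSN-MII oocytes. Unadjusted, 8 of the 83 and 1071 of all features had a p under 0.05.

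The first was F630040K05Rik, a lincRNA of chromosome 17 (chr17:45734506-45788594, plus strand). It was at 17.4, 15.4 and 21.1 FPKM in SN GV and 20.4, 23.4 and 15.2 FPKM in NSN GV oocytes. In SN-MII oocytes it was at 21.4, 17.7, 16.4 and 22.6 FPKM and in NSN-MII oocytes at 7.11, 7.82 and 3.51 FPKM. The 3 NSN-MII oocytes lay below all 10 others. The difference between the types at MII was -1.57 ± 0.26 (SE; limma, adjusted p = 0.0146), the maturation difference was 0.11 ± 0.26 in SN (adjusted p = 0.724) and -1.57 ± 0.27 in NSN oocytes (adjusted p = 0.000234), and the test of the type by stage difference itself gave -1.69 ± 0.38 (unadjusted p = 0.000532, adjusted p = 0.295). The call at MII was lost with only MII libraries in the fit (adjusted p = 0.165) and with features outside the count tables fitted apart (adjusted p = 0.0604).

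The other was C430014B12Rik, a noncoding transcript of chromosome 1 (chr1:82691928-82725169, minus strand), at 12.6, 13.9 and 14.3 FPKM in SN GV and 9.87, 8.57 and 21.2 FPKM in NSN GV oocytes. In SN-MII oocytes it was at 8.59, 12.5, 14.9 and 19.3 FPKM and in NSN-MII oocytes at 3.13, 3.22 and 4.48 FPKM. Here too the NSN-MII oocytes were below all others. The difference was -1.64 ± 0.31 (limma, adjusted p = 0.0301), and the call was lost with only MII libraries in the fit (adjusted p = 0.166), with features outside the count tables fitted apart (0.105), without a filter on low values (0.0843) and without 5 of the single oocytes in turn (up to 0.117). Maturation differences were -0.03 ± 0.31 in SN and -1.53 ± 0.33 in NSN oocytes, and the type by stage difference was -1.5 ± 0.45 (adjusted p = 0.634).

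By GENCODE, C430014B12Rik starts 279 bases from Mff, the gene of the mitochondrial fission factor. Mff lies on the opposite strand and, by the same annotation, shares 195 exon bases with C430014B12Rik. The RefSeq start of C430014B12Rik, used for its promoter window, lies farther from this start of Mff. Mff, at far higher levels, was at 649.95, 643 and 582 FPKM in SN GV, 516, 535 and 643 FPKM in NSN GV, 588, 632, 605 and 1039 FPKM in SN-MII and 112, 115 and 132 FPKM in NSN-MII oocytes. Its difference between the types at MII was -2.53 (limma, adjusted p = 2.65e-05) and at GV -0.15 (adjusted p = 1). Both transcripts are thus low in the same 3 oocytes, and since the strand of the reads is not known, reads in the shared bases cannot be told apart. F630040K05Rik starts 662 bases from 1600014C23Rik, whose symbol starts with a digit and which was not analysed here.

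**Figure D4:**
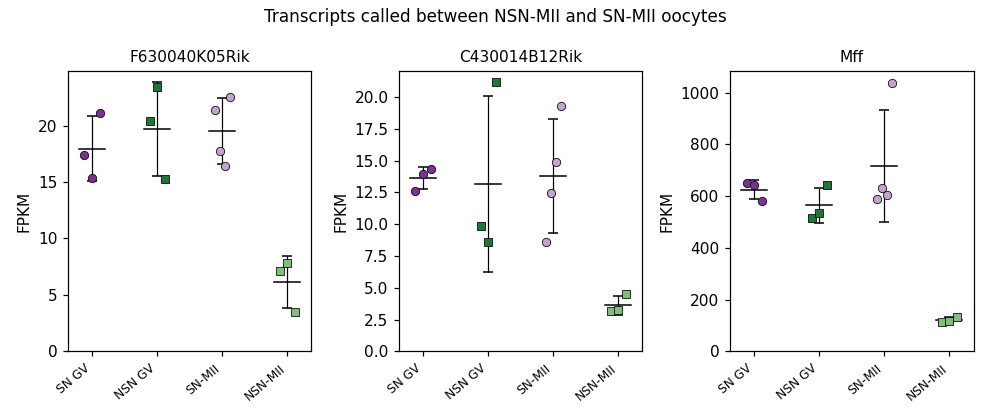
FPKM (linear axes from 0) of F630040K05Rik, C430014B12Rik and, for comparison, Mff in each oocyte, with group means and SD. The 3 NSN-MII oocytes lie below the other 10 in each panel, at most 7.82, 4.48 and 132 FPKM.

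The promoters of both transcripts and of the risen lincRNA E330012B07Rik (38.0 to 49.4 FPKM at GV, 63.2 to 94.9 FPKM at MII) are shown. They are windows of 250 bases before to 50 bases after the RefSeq start, on GRCm38.p6, at chr17:45734256-45734555 (plus strand), chr1:82725872-82726171 (minus strand) and chr6:147179991-147180290 (plus strand). Capitals mark the TATA box motif, searched as TATAAA, and the letters TAATTG (bound by the oocyte homeobox factor NOBOX), read on either strand. E330012B07Rik was named after its values were seen, and its window holds both motifs. Among transcripts that rose more, TAATTG was absent from the windows of E330034G19Rik, E330021D16Rik and E330016L19Rik and present in that of A530021J07Rik. Among those that fell, it was present for E330014E10Rik (-2.56), C430002N11Rik (-1.61) and C130026I21Rik (-1.38) and absent for A530040E14Rik and A730082K24Rik. Windows with it were not counted by direction.
F630040K05Rik: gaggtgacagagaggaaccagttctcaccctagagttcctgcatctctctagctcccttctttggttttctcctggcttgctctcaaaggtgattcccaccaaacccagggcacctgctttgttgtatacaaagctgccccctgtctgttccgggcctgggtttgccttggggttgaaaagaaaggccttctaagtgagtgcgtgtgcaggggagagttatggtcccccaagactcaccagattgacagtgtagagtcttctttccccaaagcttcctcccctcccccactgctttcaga
C430014B12Rik: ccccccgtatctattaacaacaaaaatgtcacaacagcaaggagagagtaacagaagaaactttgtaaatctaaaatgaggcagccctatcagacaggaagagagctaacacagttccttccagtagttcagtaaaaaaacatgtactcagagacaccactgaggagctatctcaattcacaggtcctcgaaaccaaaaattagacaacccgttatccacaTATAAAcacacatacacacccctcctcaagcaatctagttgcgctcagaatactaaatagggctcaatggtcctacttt
E330012B07Rik: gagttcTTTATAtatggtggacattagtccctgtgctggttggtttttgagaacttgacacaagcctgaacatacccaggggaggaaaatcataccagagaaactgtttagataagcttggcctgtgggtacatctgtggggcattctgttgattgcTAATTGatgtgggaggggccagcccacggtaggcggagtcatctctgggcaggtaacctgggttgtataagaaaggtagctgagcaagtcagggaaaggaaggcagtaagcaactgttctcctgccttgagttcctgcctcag

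RefSeq gave 65 such windows for 55 of the 83 transcripts. TAATTG was in 12 of the 65 (18.5%) against 8.0% of 32851 promoters of all genes, TATAAA in 12.3% against 13.6%, CCAAT in 41.5% against 37.4%, CACGTG in 9.23% against 7.15% and GGGCGG in 38.5% against 35.7%, each on both strands. The median GC content was 51.7% in the windows of the 83 and 52.7% in all. These motifs were chosen with the levels known, and the counts describe letters in a window.

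Of the 83 transcripts, 37 share exon bases with another gene, 46 share none and 38 overlap no gene on either strand. By the outermost GENCODE starts, 22 transcripts start within 1000 bases of a gene on the opposite strand, in 23 pairs. RefSeq starts can differ, and those of C330007P06Rik and C430014B12Rik lie outside this limit. Of the pairs, 17 had a neighbour that was tested. Both were called in 9 pairs, 5 in the same direction and 4 in opposite directions. Of the 5, 4 share exon bases, and of the 4, 1 does. Of all features, 70.4% were called, 28.4% higher and 41.9% lower. These are shares of single features, and pairs of other features were not counted. Neither the 9 pairs nor their split by direction or shared bases is therefore read as a trait of neighbours. With libraries scaled to the same FPKM sum, 2 of the 5 pairs and all 4 of the others kept both calls. The 3 lost were those of C430014B12Rik, A230060F14Rik and D930030I03Rik, and 3 other pairs gained both (2 in the same and 1 in opposite directions). The pair of C430014B12Rik and Mff was lower at MII in NSN oocytes alone. Mff had means of 625 FPKM in SN GV, 716 in SN-MII, 565 in NSN GV and 120 in NSN-MII oocytes.

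Without shared exon bases, the opposite directions were found as follows. C330007P06Rik, protein coding, rose from 7.95 ± 1.29 to 14.2 ± 2.82 FPKM (log2 difference 0.79). Ube2a, a ubiquitin-conjugating enzyme starting 211 bases away by GENCODE, fell from 166 ± 31.1 to 17.9 ± 6.78 FPKM (-3.28). C330013E15Rik, noncoding, fell from 15.0 ± 3.81 to 4.04 ± 1.10 FPKM (-1.67) while Dazap2, which encodes a partner of the germ cell protein DAZ, rose from 111 ± 6.51 to 279.98 ± 49.8 FPKM (1.32). C130036L24Rik, noncoding, rose from 3.81 ± 0.50 to 6.24 ± 2.17 FPKM (0.59) while Ncl, the nucleolar protein nucleolin, fell from 197 ± 18.1 to 123 ± 37.1 FPKM (-0.67). The stage ranges of C130036L24Rik overlapped, those of C330007P06Rik and C330013E15Rik did not.

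With shared exon bases, C630004M23Rik rose from 4.79 ± 1.09 to 13.1 ± 1.48 FPKM (1.30) beside Taf3, a TFIID subunit, which rose from 57.0 ± 10.1 to 157 ± 21.2 FPKM (1.47). E430024P14Rik fell from 12.2 ± 2.3 to 3.16 ± 0.50 FPKM (-1.67) beside Rsph3a, a radial spoke gene, which fell from 107 ± 21 to 7.61 ± 2.25 FPKM (-3.68), and A230060F14Rik (-0.62) fell beside the F-box gene Fbxo7 (-0.71), a call that A230060F14Rik lost with libraries scaled to the same FPKM sum (-0.37, adjusted p = 0.103). C230062I16Rik fell from 7.90 ± 1.82 to 1.42 ± 0.64 FPKM (-1.88) while Zfp74, a zinc finger gene sharing 235 exon bases, rose from 8.08 ± 1.24 to 15.9 ± 2.93 FPKM (0.88). D930030I03Rik (-1.69) and Adprh (-0.99) fell together without shared exon bases, and with the same scaling Adprh was no longer called (-0.72, adjusted p = 0.105). Reads in shared bases cannot be assigned to a strand, and how much of each Rik value they make up was not tested.

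**Figure D5:**
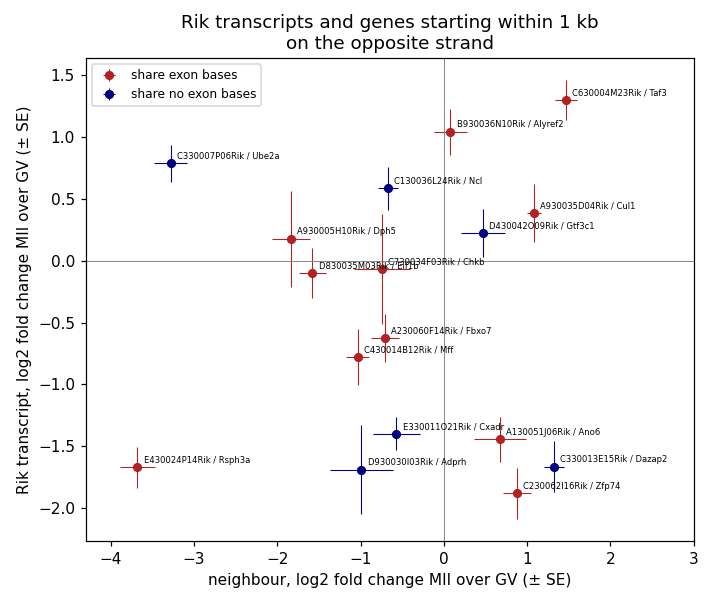
Log2 difference of MII over GV (log2(FPKM + 1) scale, ± SE) of Rik transcripts against that of the 17 tested genes that start within 1 kb on the opposite strand by GENCODE, coloured by whether exon bases are shared. The pair of C330007P06Rik and Ube2a lies at 0.79 and -3.28, and that of C330013E15Rik and Dazap2 at -1.67 and 1.32.

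Among transcripts that overlap genes in other ways, A630095E13Rik (Pate14) was at 30.8 ± 9.55 FPKM at GV and 27.6 ± 8.30 FPKM at MII without a call (log2 difference -0.19 ± 0.24), C030017G13Rik, inside the cohesin regulator gene Pds5a, at 19.6 ± 10.4 and 21.3 ± 6.81 FPKM without a call (0.20 ± 0.29), and D230025D16Rik fell from 37.5 ± 4.08 to 18.1 ± 4.43 FPKM (-1.02). A430046D13Rik fell from 8.77 ± 1.73 to 0.86 ± 0.24 FPKM, and D430042O09Rik was at 5.71 ± 1.69 and 6.91 ± 1.64 FPKM without a call, though it was called higher with libraries scaled to the same FPKM sum (log2 difference 0.47, adjusted p = 0.0477).

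The test of a difference in maturation between NSN and SN oocytes called none of the 83 in limma (0.00868% of all features, 1 of 11525), with 6 of the 83 and 608 of all features at an unadjusted p under 0.05. After F630040K05Rik and C430014B12Rik, the smallest p values belonged to A430093F15Rik (-1.09 ± 0.37, adjusted p = 0.738) and C230057A21Rik (1.17 ± 0.43, adjusted p = 0.762). C230057A21Rik, a lincRNA, was at 14.8, 8.15, 13.9 and 9.16 FPKM in SN-MII and 15.0, 22.9 and 21.9 FPKM in NSN-MII oocytes, and its GV oocytes were at 4.80 to 11.6 FPKM. The median SE of this difference was 0.45, larger than in the comparisons of 2 groups.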

How the data were processed

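The authors trimmed the reads with Trim Galore 0.4.4, aligned them to mm10 with Bowtie2 2.3.5 and quantified genes with RSEM 1.2.28. Per the labels, single oocytes were amplified with a SMART-seq2 protocol, and no molecular identifiers or strand are named in the sources used here. The deposited FPKM values are in 1 table of all libraries, scaled by gene length and library size by the authors. The deposited expected count values of RSEM are in 1 table per stage. They were used only to find which features they hold and for library totals of 7140416 to 8846287, since the 83 transcripts have no counts. The depth behind each of their values is therefore unknown and no counting interval is given.

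Features with a mean FPKM of at least 1 (11525) were tested on log2(FPKM + 1) with limma 3.58.1 (R 4.3.3; mean-variance trend, 4 groups, all 13 libraries) and Benjamini-Hochberg adjustment over all of them, in 6 comparisons, calling adjusted p under 0.05. A fold on this scale understates the change of low transcripts. Gene positions came from GENCODE M21 and promoters from RefSeq. No pair of libraries was identical.

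In simulated data, 100 of 11525 features were changed by 1 and 100 by 2 on the log2 scale, and the others were left unchanged. In the stage comparison 63 changes of 1 and 87 changes of 2 were called. For NSN against SN at GV it was 27 and 77, at MII 33 and 82, and for the interaction 6 and 55, each of 100. In the measured data 70.4% of features were called between stages, so the simulated stage numbers do not carry over to them.

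The members, lists and comparisons were chosen with earlier results of these data known. Transcripts were named by a rule: the 10 most abundant, the 8 largest rises and falls among called transcripts with stage ranges apart, called transcripts or else the 4 smallest p values within a stage or in the interaction, those nearest the threshold, and up to 6 per kind of neighbour. Others were named after their values were seen: 6 with near-identical copies, E330012B07Rik and the called head-to-head pairs. E330009J07Rik and B230118H07Rik were named likewise, for their later names. A planned comparison with Rik symbols inside the count tables could not be made, since there are none. Alternatives covered pseudocount, filter, scaling, trend, array weights, the fit's libraries, a replicate block, a fold minimum and leaving out each library.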

Additional observations from a re-analysis of the deposited data

Results flagged for a closer look

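The levels of 44 transcripts in the 4 SN-MII oocytes were examined by Dixon's criterion, which chance meets about 1 time in 20. For 1 transcript, 1 oocyte stood apart from the rest. All 44 were measured in the same 4 oocytes, so they are not separate groups. E030030I06Rik measured 25.6 FPKM in the third SN-MII oocyte and 2.80 to 3.71 FPKM in the other 3, a gap of 0.960 of the group's range. Groups of 3 oocytes were not examined in this way.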

How the results depend on the processing

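Of the 56 stage calls, 48 held in all 23 alternatives that refit the data and 54 without any single oocyte, and no called transcript changed direction. The fold minimum of 1.5 is not among the 23, and 54 of the stage calls passed it. Of 47 calls in SN and 50 in NSN maturation, 38 and 40 held in all. Leaving out 1 oocyte gave 55 to 59 stage calls, 42 to 46 in SN and 43 to 52 in NSN maturation, and 0 between types at GV and in the interaction. The 2 calls between types at MII were less stable. There was 1 without a filter on low values, 0 with features outside the count tables fitted apart, 0 with only MII libraries in the fit and 1 to 2 without 1 oocyte. F630040K05Rik was called without each oocyte, while C430014B12Rik was lost without SN-MII oocyte 2, 3 or 4 (adjusted p = 0.0786, 0.102 and 0.0936) or NSN-MII oocyte 1 or 2 (0.117 and 0.106). The cause was not tested.

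Replicate numbers are shared between groups, but deviations of same-numbered oocytes correlated at -0.394 to 0.164, so the numbers do not pair the oocytes. With the replicate block, calls were 55 between stages, 43 in SN and 48 in NSN maturation and 0 in each of the other comparisons, the calls of F630040K05Rik (adjusted p = 0.0955) and C430014B12Rik (0.0946) at MII being lost. Number 4 occurs in 1 oocyte alone, the fourth of the SN-MII group, which the block term absorbs, so this fit also leaves that oocyte out. Without that oocyte and with no block, the differences were the same (-1.5 for F630040K05Rik and -1.47 for C430014B12Rik), with adjusted p = 0.0492 and 0.0936.

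Among named transcripts without a call, the stage difference of D630045J12Rik was 0.066 with libraries scaled to the same FPKM sum and between -0.216 and 0.042 without 1 oocyte (0.042 without NSN GV oocyte 1), and that of A630095E13Rik was 0.088 with the same scaling and 0.018 with array weights, against -0.12 and -0.19 as deposited. Same-sum scaling also ended the stage calls of A430033K04Rik, C430014B12Rik, A330093E20Rik, E130111B04Rik and A230060F14Rik and gave calls to D430042O09Rik (0.47) and A930035D04Rik (0.56). A930035D04Rik was also called without NSN GV oocyte 1 (0.59), and E130308A19Rik with array weights (0.65) and without NSN-MII oocyte 3 (0.73). Depth cannot be given for these transcripts, and with 3 or 4 oocytes per group differences of 1 on the log2 scale between types were often missed in simulated data.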
